A study of Sus scrofa with 6 samples.

Results

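Poly(A) RNA of pig embryos at the 4-cell stage was examined for 10 genes that encode enzymes removing acetyl groups from lysine, HDAC1 to HDAC8 and the nuclear sirtuins SIRT1 and SIRT6. They were taken as the rows of the series' expression table that carry these 10 symbols, out of 30376 genes in the table, and each symbol stood on 1 row. The high-temperature group was cultured at 41.5 °C and the control group at 38.5 °C, with 3 libraries each. All embryos were wild type, came from oocytes activated with 2 electrical pulses of 120 V, and were kept in the same medium (PZM-5 with albumin, under oil and 5% CO2) for 4 days. About 300 4-cell samples were lysed for library construction, a number the labels do not tie to a single library, so the libraries were made from pooled embryos. The series asks how heat acts on zygotic genome activation, when the embryo begins to transcribe its own genes and stops relying on maternal RNA. The labels do not say whether the 3 libraries of a group came from separate cultures, so p-values measure the spread between these libraries only, which may be technical.

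Acetylation of histone tails loosens chromatin and marks active genes, and deacetylases reverse it. Zinc-dependent deacetylases fall into class I (HDAC1, HDAC2, HDAC3 and HDAC8), class IIa (HDAC4, HDAC5 and HDAC7, among others) and class IIb (HDAC6), while sirtuins use NAD as a co-substrate. HDAC1 and HDAC2 act as catalytic subunits of the SIN3, NuRD and CoREST corepressors, and HDAC3 of the NCoR corepressor. In mouse preimplantation embryos HDAC1 is known as a major histone deacetylase, and embryonic chromatin is broadly acetylated around genome activation.

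The 6 libraries held 28114005 to 30079385 reads assigned to genes. Control replicate 1 stood apart in its TMM scaling factor (the correction for library composition), which was 0.865 against 0.99965 to 1.0888 in the other 5 libraries. The 13 mitochondrially encoded genes held 26.7%, 24.9% and 23.8% of the reads in high-temperature replicates 1, 2 and 3 and 23.6%, 21.0% and 21.5% in control replicates 1, 2 and 3, and 12467 to 12651 genes reached 1 CPM at high temperature against 12350 to 12425 in controls. Neither measure overlapped between the groups. The mean log2 CPM (CPM, read counts scaled to a common effective library size) of 78 cytosolic ribosomal protein genes was 6.90, 6.36 and 5.62 in high-temperature replicates 1, 2 and 3 and 7.23, 6.24 and 5.71 in control replicates 1, 2 and 3. All 14 oocyte and early embryo markers were above 1 CPM, led by DPPA3. Of 16 cumulus and granulosa markers, 5 had no reads at all, among them the defining genes FOXL2, FSHR, AMH and CYP11A1, while 5 (TNFAIP6, STAR, FST, NR5A2 and VCAN) were above 1 CPM, led by NR5A2 at 46.6 CPM. The list's summed level was 45.5 to 84.5 CPM at high temperature and 38.0 to 78.7 CPM in controls. The 14 stromal and blood markers summed to 13.8 to 16.1 CPM at high temperature and 14.9 to 18.0 CPM in controls.

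In both groups the deacetylase transcripts were dominated by HDAC2 and SIRT1. Together these 2 genes held 86.3% to 92.7% of the summed TPM (a length-corrected abundance computed by the authors) of the 10 genes at high temperature and 88.7% to 95.3% in controls. Over the 6 libraries HDAC2 averaged 68.5 TPM, a level above that of 92.2% of the tested genes, and SIRT1 averaged 33.4 TPM, above 86.8%. HDAC1 averaged 5.03 TPM and HDAC3 1.96 TPM. HDAC6, HDAC8 and HDAC5 followed at 0.869, 0.820 and 0.521 TPM, and SIRT6 at 0.246 TPM. HDAC7 and HDAC4 stood at the bottom, at 0.0249 and 0.00176 TPM.

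The order HDAC2, SIRT1, HDAC1, HDAC3, HDAC6 held in all 6 libraries on the TPM scale, and the ranges of neighbours in this order did not overlap. HDAC8 stands outside this order, since in control replicate 1 it was above HDAC3, at 1.214 against 1.176 TPM. HDAC6 and HDAC8 did not differ beyond their spread, with HDAC6 the higher of the pair in 4 of 6 libraries. The ranges of HDAC8 and HDAC5 overlapped as well, with HDAC8 higher in 5 of 6. HDAC5 exceeded SIRT6 in all 6 libraries although their ranges overlapped. Ranking the genes by the authors' FPKM in place of TPM gave all 10 the same place.

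**Figure D1:**
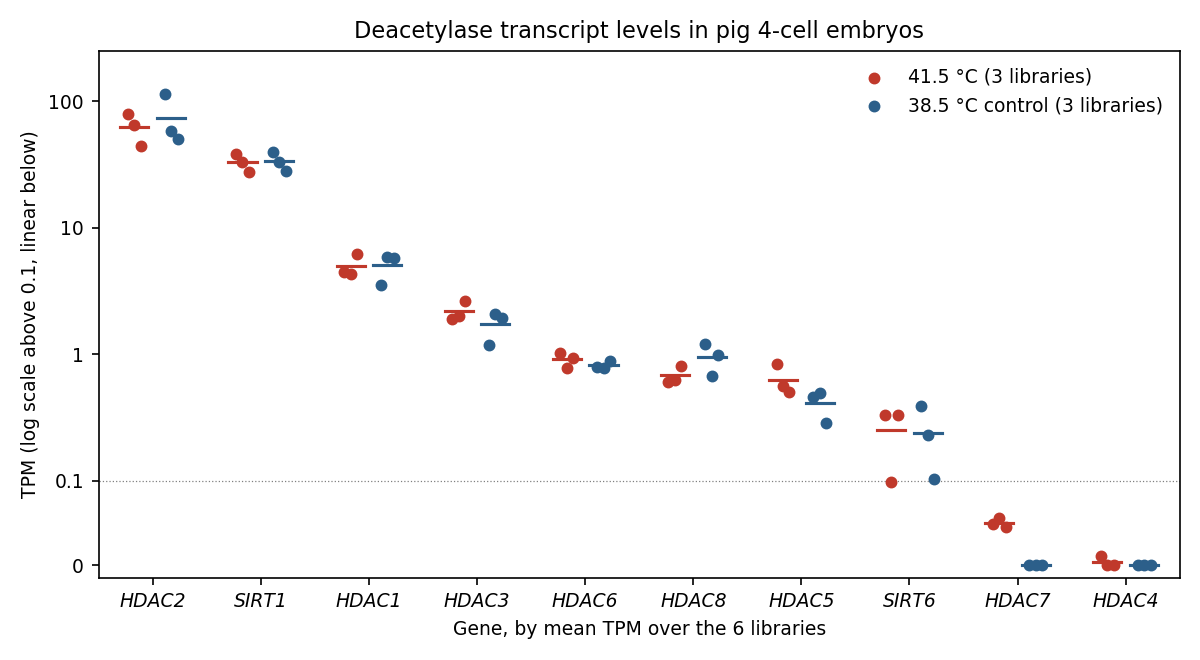
TPM of the 10 deacetylase genes (x axis, by mean TPM) in each library, on a y axis that is logarithmic above 0.1 TPM (dotted line) and linear below. Points are libraries and bars group means, with 41.5 °C left of 38.5 °C; HDAC2 and SIRT1 lie above 27 TPM in every library, HDAC7 has points above 0 at 41.5 °C alone, and the groups also do not overlap for HDAC5 on this scale.

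No difference between culture temperatures was called for any of the 10 genes by the edgeR quasi-likelihood test with Benjamini-Hochberg adjustment at 0.05. With enough reads to be tested were 7 of the 10 (all but HDAC4, HDAC7 and SIRT6), and 0 of these 7 were called, with 0 also at an unadjusted p below 0.05. Over all 16056 genes tested the share called was 0.0%, and 1.85% had an unadjusted p below 0.05. DESeq2, which applies no such expression filter, called 0 of the 10 against 0.0202% of all genes with an adjusted p, and 1 of them (HDAC7) had an unadjusted p below 0.05, against 1.58% of all genes by DESeq2. Without its filter edgeR called 0 of the 10 against 0.00404% of all genes, and in a fit with a replicate block it called 0 of the 7 against 0.0187%. Of the 7 tested genes 3 had a fitted level above control and 4 a fitted level below it. Their median log2 fold change was -0.08, against -0.02 over all genes tested. When control replicate 1 was left out, the median was 0.19 and 6 of the 7 were higher. The 95% intervals held no change as large as 4-fold in either direction for any of the 7, and no 2-fold change for 4 of them (HDAC1, HDAC3, HDAC6 and SIRT1). Over all genes tested the intervals held no 4-fold change for 91.8% and no 2-fold change for 49.7%. Because whole embryos were pooled, a change in the number of cells that hold a transcript and a change in its amount per cell cannot be told apart.

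Among class I genes, HDAC2 (chromosome 1, 79867713 to 79901597, Sscrofa11.1) varied most between libraries. It was at 125.9, 102.0 and 63.8 CPM in high-temperature replicates 1, 2 and 3 and at 212.1, 90.1 and 75.0 CPM in control replicates 1, 2 and 3. The groups overlapped: control replicate 1 was the highest of the 6 libraries and high-temperature replicate 3 the lowest, 3.33-fold apart. The means were 97.2 ± 31.3 CPM at high temperature and 125.7 ± 75.2 CPM in controls (SD, n = 3 each). The log2 fold change of -0.37 (standard error 0.43, 95% interval -1.35 to 0.61) was not called (edgeR, adjusted p = 0.999923). Without control replicate 1 it was 0.23, in a fit that kept high-temperature replicate 1, the highest library of its group. With a replicate block and all 6 libraries it was -0.27 (standard error 0.17). In both groups the level fell from replicate 1 to replicate 3, and the cause was not tested. The spread of HDAC2 within groups (0.668 on the log2 CPM scale) was wider than that of 89.3% of the 6310 tested genes with a mean of at least 10 CPM.

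HDAC1 (chromosome 6, 88749611 to 88785220), the close relative of HDAC2 in the same complexes, was far less abundant and steadier. Its level was 7.26, 6.98 and 9.03 CPM in high-temperature replicates 1, 2 and 3 and 6.81, 9.34 and 8.83 CPM in control replicates 1, 2 and 3. Control replicate 1, the highest library for HDAC2, was thus the lowest for HDAC1, and the groups overlapped. The log2 fold change was -0.10 (standard error 0.24, 95% interval -0.65 to 0.44; edgeR, adjusted p = 0.999923). On the TPM scale HDAC2 exceeded HDAC1 by 17.8, 15.0 and 7.23 times in high-temperature replicates 1, 2 and 3 and by 32.0, 9.89 and 8.70 times in control replicates 1, 2 and 3. The ends of this range lay in different groups, at control replicate 1 and high-temperature replicate 3.

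HDAC3 (chromosome 2, 143273188 to 143287421), the catalytic subunit of NCoR complexes, was at 3.01, 3.16 and 3.53 CPM in high-temperature replicates 1, 2 and 3 and at 2.23, 3.28 and 2.89 CPM in control replicates 1, 2 and 3. The groups overlapped, and control replicate 1 was again the lowest library. Its log2 fold change was 0.21 (standard error 0.26, 95% interval -0.38 to 0.80; edgeR, adjusted p = 0.999923), and it was 0.069 when control replicate 1 was left out. HDAC8 (chromosome X, 58210182 to 58450681), which deacetylates the cohesin subunit SMC3, was at 1.34, 1.74 and 1.54 CPM in high-temperature replicates 1, 2 and 3 and at 2.62, 1.17 and 1.43 CPM in control replicates 1, 2 and 3. Here control replicate 1 was the highest library, as for HDAC2. The log2 fold change of HDAC8 was -0.17 (standard error 0.36) and 0.24 without control replicate 1. On the TPM scale HDAC8 was at 0.603, 0.628 and 0.811 in high-temperature replicates 1, 2 and 3. In control replicates 1, 2 and 3 it was at 1.214, 0.676 and 0.986 TPM. High-temperature replicates 1 and 2 were thus below every control library in TPM but not in CPM, and the groups overlapped on both scales.

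**Figure D2:**
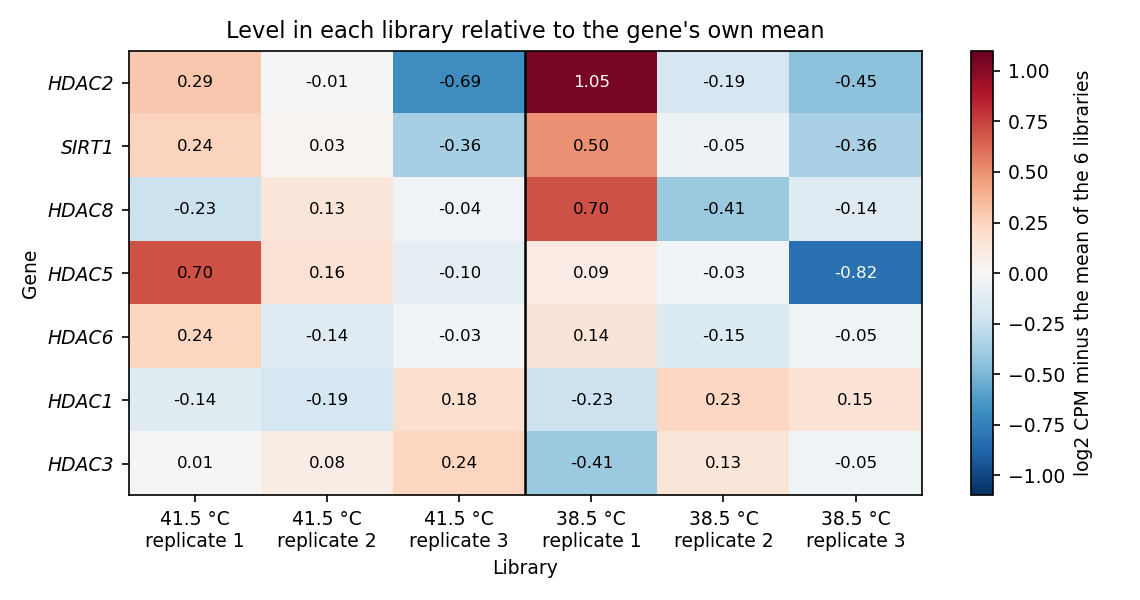
log2 CPM of the 7 tested deacetylase genes (rows) in each library (columns, 41.5 °C left of the line and 38.5 °C right of it) minus the gene's mean over the 6 libraries. Control replicate 1 holds the highest value of HDAC2 (1.05), SIRT1 (0.50) and HDAC8 (0.70) and the lowest of HDAC1 (-0.23) and HDAC3 (-0.41).

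Class IIa enzymes bind MEF2 factors and move between nucleus and cytoplasm in response to signalling. HDAC5 (chromosome 12, 19077910 to 19119463) had 73, 49 and 43 reads in high-temperature replicates 1, 2 and 3 and 42, 43 and 25 reads in control replicates 1, 2 and 3. On the TPM scale this was 0.833, 0.560 and 0.501 at high temperature against 0.455, 0.492 and 0.286 in controls. The groups did not overlap in TPM, with 0.501 and 0.492 as the nearest values, a pattern that 4.96% of the tested genes showed in this direction. In CPM they did overlap, at 2.50, 1.70 and 1.41 CPM at high temperature and 1.62, 1.48 and 0.830 CPM in controls. The edgeR log2 fold change was 0.51 (standard error 0.37, 95% interval -0.34 to 1.37), the largest of the 7 tested genes, and was not called (adjusted p = 0.999923). Leaving out each library in turn kept it above 0, at 0.25 to 0.71.

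HDAC7 (chromosome 5, 78150554 to 78186051) had no reads in any control library and 5, 6 and 5 reads in high-temperature replicates 1, 2 and 3. The groups did not overlap, and pooled over the group the level at high temperature was 5.12 times a floor of 3 counts over the 3 control libraries. This ratio leaves out the counting error of the 16 reads at high temperature and the spread between libraries. Such counts lay below the expression filter. With no filter the edgeR unadjusted p was 0.0213 and the adjusted p 0.999963, and DESeq2 gave 0.0151 and 0.999939. Among the 1446 untested genes with 12 to 20 reads in all, a range set after the counts of HDAC7 were seen, 2.42% had reads in every high-temperature library and none in controls, and 1.04% the reverse. The gene shares 31 bases with SLC48A1, a haem transporter gene, which had 26, 37 and 60 reads in high-temperature replicates 1, 2 and 3 and 12, 33 and 37 in control replicates 1, 2 and 3. Since the kit does not mark strand and the sources used here give no counting rule for overlaps, the counts of HDAC7 are uncertain.

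HDAC4 (chromosome 15, 138378237 to 138657266) had 3 reads in high-temperature replicate 1 and none in the other 5 libraries, at or under the floor in both groups. HDAC4, HDAC5 and HDAC7 summed to 0.892, 0.616 and 0.546 TPM in high-temperature replicates 1, 2 and 3. In control replicates 1, 2 and 3 they summed to 0.455, 0.492 and 0.286 TPM, without overlap, nearly all of it HDAC5. The class IIa enzyme HDAC9 is not in this sum, so the sum does not describe the whole class. HDAC9 was at 1.11, 1.61 and 1.87 TPM in high-temperature replicates 1, 2 and 3. Its values in control replicates 1, 2 and 3 were 1.54, 1.64 and 1.47 TPM, and the groups overlapped. The mitochondrial share of reads and the number of genes at 1 CPM, given above, separated the groups in the same direction as HDAC5 (in TPM) and HDAC7. Their part in the values of HDAC5 and HDAC7 was not tested. HDAC6 (chromosome X, 42917911 to 42941894), a mainly cytoplasmic deacetylase of tubulin, was the steadiest of the 7 tested genes. It was at 3.05, 2.33 and 2.52 CPM in high-temperature replicates 1, 2 and 3 and at 2.85, 2.31 and 2.49 CPM in control replicates 1, 2 and 3. Highest and lowest library were 1.32-fold apart and the groups overlapped. The log2 fold change was 0.05 (standard error 0.25, 95% interval -0.53 to 0.63), and it was -0.073 without high-temperature replicate 1 and -0.022 without control replicate 2. Its start shares 13 bases with a noncoding RNA gene, LOC110257658, that had at most 7 reads in a library.

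SIRT1 (chromosome 14, 71091167 to 71126351), which deacetylates histones and factors such as p53, was at 133.2, 114.4 and 87.3 CPM in high-temperature replicates 1, 2 and 3. In control replicates 1, 2 and 3 it was at 159.3, 108.3 and 87.7 CPM. The groups overlapped, with means of 111.6 ± 23.0 CPM at high temperature and 118.4 ± 36.9 CPM in controls (SD, n = 3 each). The log2 fold change was -0.08 (standard error 0.27, 95% interval -0.72 to 0.55; edgeR, adjusted p = 0.999923). It was 0.031 with library totals in place of TMM, 0.19 when control replicate 1 was left out and 0.10 when high-temperature replicate 3 was. SIRT1 shares 252 bases with HERC4, a ubiquitin ligase gene at 80.3 ± 1.87 CPM at high temperature and 86.7 ± 13.1 CPM in controls, so the split of reads between them is uncertain.

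SIRT6 (chromosome 2, 74568539 to 74577774), a sirtuin of chromatin and DNA repair, was near the limit of detection. It had 10, 3 and 10 reads in high-temperature replicates 1, 2 and 3 and 13, 7 and 3 reads in control replicates 1, 2 and 3, that is 23 reads in each group. The groups overlapped almost fully. With so few reads SIRT6 stayed below the expression filter, and only differences far beyond the spread of these counts would have been detectable.

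**Figure D3:**
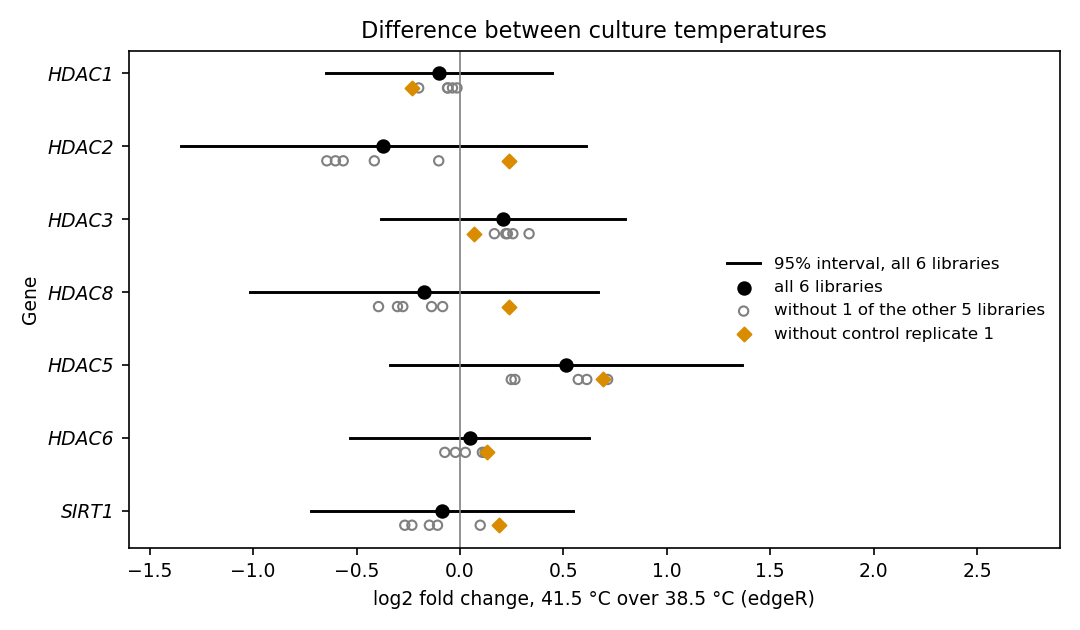
log2 fold change (x axis, 41.5 °C over 38.5 °C, edgeR) of the 7 tested deacetylase genes, with 95% intervals as lines. Open circles leave out 1 library each and diamonds leave out control replicate 1, where HDAC2, HDAC8 and SIRT1 lie above 0 (0.23, 0.24 and 0.19); every interval from all 6 libraries includes 0.

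HDAC2 and SIRT1 ranked the 6 libraries in the same order by CPM: control replicate 1, high-temperature replicates 1 and 2, control replicates 2 and 3, and high-temperature replicate 3, the last 2 nearly equal for SIRT1. The mean of the ribosomal protein genes given above fell in that order as well, and its part in the levels of HDAC2 and SIRT1 was not tested. The root-mean-square difference between the centred log2 CPM profiles of HDAC2 and SIRT1 over the 6 libraries was 0.268. From HDAC2 it was 0.404 to HDAC8, 0.489 to HDAC6, 0.517 to HDAC5, 0.720 to HDAC1 and 0.744 to HDAC3.

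Of 6309 other genes with a mean of at least 10 CPM, the 3 with the profile closest to HDAC2 were RPL22L1, LOC100524308 and TRDMT1, at differences of 0.0282, 0.0386 and 0.0428. RPL22L1 encodes a paralogue of a ribosomal protein, LOC100524308 is annotated as subunit 8 of the cytochrome b-c1 complex, and TRDMT1 encodes a tRNA methyltransferase. TRDMT1 was at 75.1, 62.8 and 40.8 CPM in high-temperature replicates 1, 2 and 3 and at 130.7, 57.2 and 44.2 CPM in control replicates 1, 2 and 3. Over 6 libraries alone many genes can match closely, and the likeness is a description only.

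Outside the 10 genes, 8 further deacetylases and sirtuins were in the table, and 5 of them were tested, 3 higher and 2 lower with 0 called. The most abundant by CPM were HDAC9, a class IIa enzyme, and SIRT4, a mitochondrial sirtuin. HDAC9 was at 1.11, 1.61 and 1.87 TPM in high-temperature replicates 1, 2 and 3 and at 1.54, 1.64 and 1.47 TPM in control replicates 1, 2 and 3, above HDAC5 in every library. SIRT4 was at 4.13 ± 1.70 TPM at high temperature and 4.95 ± 2.20 TPM in controls. SIRT5, another mitochondrial sirtuin, was at 0.583 ± 0.104 TPM at high temperature and 0.255 ± 0.221 TPM in controls without overlap (SD, n = 3 each), from 11, 15 and 11 reads against 0, 8 and 9. Its log2 fold change of 1.09 had a standard error of 0.84 and was 0.54 when control replicate 1, the library with 0 reads, was left out. SIRT3 was at 2.27 ± 0.333 TPM at high temperature and 1.77 ± 0.602 TPM in controls. SIRT2, below the expression filter, had 23, 5 and 11 reads in high-temperature replicates 1, 2 and 3. In control replicates 1, 2 and 3 it had 4, 0 and 3 reads. Its level was 0.315 ± 0.215 TPM at high temperature and 0.0482 ± 0.0418 TPM in controls, without overlap. DESeq2 gave it an unadjusted p below 0.05 but did not call it.

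The proteins that deacetylases work with or against gave no called gene either. Over 7 lists, the 8 further deacetylases and sirtuins among them, 154 distinct genes were in the table and 142 were tested, 74 higher and 68 lower. The median log2 fold change of the 142 was 0.0070, against -0.02 over all genes tested. By edgeR 0 were called and 0 had an unadjusted p below 0.05, against 1.85% of all genes tested. DESeq2 gave a p for 152 genes of the lists and called 0. Of these 152, 1 (SIRT2, outside the 142) had an unadjusted p below 0.05, that is 0.658% against 1.58% of all genes by DESeq2. With a replicate block 0 were called and 8 of the 142 (5.63%) had an unadjusted p below 0.05, against 9.25% of all genes tested in that fit. By limma, which tested 111 genes of the lists on the FPKM scales and 116 on the TPM scale, 1 (BRD2) did on each of the 3 scales. That was 0.862% to 0.901% of the list genes tested, against 1.26% to 1.33% of all genes tested by limma. In CPM the groups did not overlap for 7 of the 142 (4.93%), 6 higher and 1 lower, against 7.71% of all genes tested.

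Corepressor subunits had 21 of 37 tested genes higher, 16 lower and 0 called (median log2 fold change 0.06). ARID4A, a SIN3 complex subunit, was at 852.6 ± 112 CPM at high temperature and 955 ± 165 CPM in controls, and the histone-binding subunit RBBP7 at 389.7 ± 30.6 CPM at high temperature and 441.8 ± 36.0 CPM in controls (SD, n = 3 each). HMG20B, a subunit of CoREST-type complexes, was at 22.3 ± 3.93 CPM at high temperature and 14.8 ± 5.87 CPM in controls, and the NCoR subunit GPS2 at 14.0 ± 2.77 CPM at high temperature and 9.84 ± 3.08 CPM in controls. The values of all 4 genes overlapped between groups. Per length, ARID4A, RBBP7, HMG20B and GPS2 averaged 207.5, 272.6, 13.3 and 12.6 TPM over the 6 libraries. All 4 were above the 5.03 TPM of HDAC1 and the 1.96 TPM of HDAC3. HDAC2, at 68.5 TPM, was below ARID4A and RBBP7 but above HMG20B and GPS2.

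Histone acetyltransferases, a list that also held N-terminal acetyltransferases, had 8 of 18 genes higher, 10 lower and 0 called (median log2 fold change -0.01). HAT1, which acetylates newly made histone H4, was at 200.3, 171.5 and 107.4 CPM in high-temperature replicates 1, 2 and 3 and at 292.9, 151.5 and 113.1 CPM in control replicates 1, 2 and 3. Control replicate 1 was the highest library and high-temperature replicate 3 the lowest, as for HDAC2. CLOCK, a circadian factor with reported acetyltransferase activity, was at 259.4 ± 43.8 CPM at high temperature and 264.1 ± 40.9 CPM in controls (SD, n = 3 each). The smallest p in the list belonged to the N-terminal acetyltransferases NAA60 (5.56 ± 0.816 CPM at high temperature and 7.24 ± 1.57 CPM in controls) and NAA40 (8.48 ± 1.98 CPM at high temperature and 6.30 ± 1.76 CPM in controls).

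Partners of acetyltransferases had 13 of 24 genes higher, 11 lower and 0 called. MORF4L1, a chromodomain subunit of the NuA4 complex, was at 113.8 ± 12.2 CPM at high temperature and 135.1 ± 27.2 CPM in controls, and the adaptor TADA2A at 118.8 ± 23.2 CPM at high temperature and 129.7 ± 31.9 CPM in controls (SD, n = 3 each). DMAP1 was at 0.899 ± 0.456 CPM at high temperature and 0.479 ± 0.220 CPM in controls, and MSL1 at 19.6 ± 6.35 CPM at high temperature and 14.7 ± 2.92 CPM in controls. Groups overlapped for all 4.

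Readers of acetyl-lysine, mostly bromodomain proteins, had 13 of 26 genes higher, 13 lower and 0 called. BRDT, best known from the male germ line in the mouse, was the most abundant by CPM, at 1198, 951.9 and 465.1 CPM in high-temperature replicates 1, 2 and 3 and at 1573, 867.1 and 480.6 CPM in control replicates 1, 2 and 3. BAZ1A was at 287.5 ± 21.1 CPM at high temperature and 327.7 ± 30.2 CPM in controls. BRD2 was at 37.0 ± 3.56 CPM at high temperature and 27.4 ± 7.45 CPM in controls, and BRD9 at 7.58 ± 1.35 CPM at high temperature and 5.79 ± 0.553 CPM in controls (SD, n = 3 each). The groups overlapped for each of these readers.

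Partners of class IIa enzymes had 11 of 21 genes higher, 10 lower and 0 called. SIK1, a kinase that phosphorylates class IIa deacetylases and so keeps them out of the nucleus, was at 0.753, 0.521 and 0.785 CPM in high-temperature replicates 1, 2 and 3 and at 0.346, 0.414 and 0.332 CPM in control replicates 1, 2 and 3, without overlap. Its log2 fold change was 0.91 (standard error 0.43; edgeR, unadjusted p = 0.0684, adjusted p = 0.999923). YWHAH, a 14-3-3 protein of the family that holds phosphorylated class IIa enzymes in the cytoplasm, was at 56.6 ± 3.11 CPM at high temperature and 46.8 ± 6.50 CPM in controls, also without overlap. The most abundant of the list by CPM, YWHAB and the kinase PRKD3, were at 334.9 ± 20.3 and 150.3 ± 2.03 CPM at high temperature and at 350.5 ± 63.0 and 157.4 ± 14.5 CPM in controls (SD, n = 3 each).

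Genes of NAD and acetyl-CoA supply had 6 of 12 higher, 6 lower and 0 called. NAMPT, the rate-limiting enzyme of NAD salvage on which sirtuins depend, was at 82.4, 68.6 and 54.9 CPM in high-temperature replicates 1, 2 and 3 and at 104.6, 62.2 and 63.7 CPM in control replicates 1, 2 and 3. Control replicate 1 was again the highest library and the groups overlapped. PDHA1, a pyruvate dehydrogenase subunit, was at 136.8 ± 36.6 CPM at high temperature and 146.9 ± 41.6 CPM in controls (SD, n = 3 each). NMNAT3 was at 2.80 ± 0.778 CPM at high temperature and 2.03 ± 0.813 CPM in controls, and PARP1, an NAD consumer, at 19.6 ± 3.21 CPM at high temperature and 15.8 ± 4.35 CPM in controls.

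**Figure D4:**
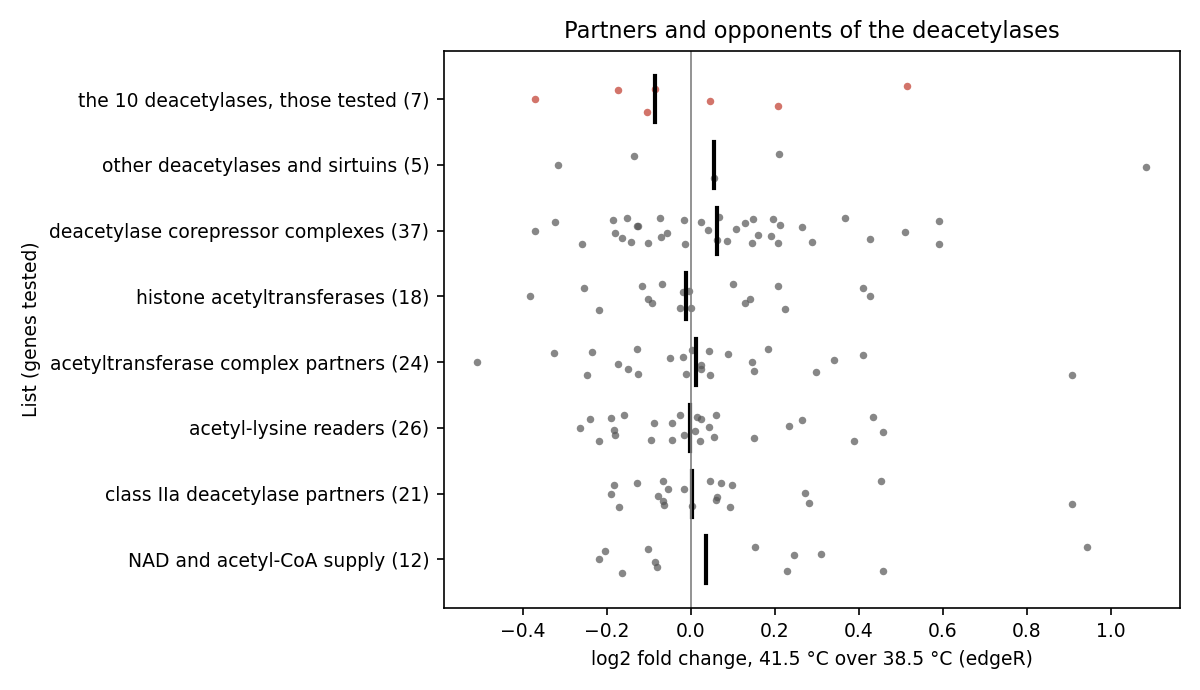
log2 fold change (x axis, 41.5 °C over 38.5 °C, edgeR) of each tested gene (points) in 8 lists (rows, number tested in brackets), with the list median as a vertical bar. The medians of all 8 lie between -0.08 and 0.06, and 0 of the genes shown were called.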

How the data were processed

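Counts, FPKM and TPM per gene were deposited by the authors for 6 libraries: whole-number read counts that are not normalized, FPKM per gene length and library size, TPM scaled to the same total per library, per the file headers. Libraries were made with a SMART-Seq kit from oligo(dT)-selected mRNA, per the labels' protocols. Per the submitters' processing notes, the genome build was Sscrofa11.1 and the tools included StringTie 2.1.3b, HISAT2 2.1.0, HISAT, Trimmomatic 0.38 and Bowtie2, with no roles given; the sources used here do not name the counting tool. Table columns were checked against each library's own FPKM: 99.4% to 99.5% of genes were equal within 1e-05 in the own column, at most 27.9% in another. Gene positions come from a RefSeq table of Sscrofa11.1, matched by Entrez ID (30352 of 30376 genes). The 24 rows with no symbol held 0.527% to 0.658% of the counts.

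Counts were tested with edgeR 4.0.16 (R 4.3.3) by the quasi-likelihood test over all 16056 genes that passed its default expression filter, with TMM scaling, no term but group, and p-values adjusted by Benjamini and Hochberg (threshold 0.05). Log2 CPM values used a prior count of 2. DESeq2 1.42.0, limma 3.58.1 on log2(FPKM + 1), log2(FPKM + 0.1) and log2(TPM + 1) for genes with a mean of at least 1, other scalings, no filter, a replicate block, removal of rows with no symbol and leaving out each library were alternatives. The tests were tried on simulated counts. The floor of 3 counts covers counting error only.

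The genes, lists and tests were chosen with earlier results of these data known. Named were the 10 genes, in each list the 2 most abundant genes by CPM and the 2 with the smallest p, and the 3 genes closest in profile to the tested deacetylase with the widest range. The marker symbols HAS2 and INHBA were not used, as they matched no row or more than 1, and the readers BRD3 and CECR2 matched no row.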

Additional observations from a re-analysis of the deposited data

How the results depend on the processing

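Of the deacetylases each alternative could test, 0 were called: 10 were tested with DESeq2 and without the filter, 4 by limma and 7 or 8 in the others. Over all genes the count was 0 except for 5 with DESeq2 (LOC110262067, LSMEM2, MOGAT1, WDR76 and WISP3), 1 without the filter on low counts (WISP3) and 3 with a replicate block (LSMEM2, MOGAT1 and WISP3), none of them a deacetylase and all named after their values were seen. Numbers were not used to pair libraries in the main fit, since the labels do not say that a number marks a shared culture. The deviations of same-numbered libraries correlated at 0.516, 0.0080 and 0.586 for numbers 1, 2 and 3. High-temperature replicates 1 and 3 correlated best with their own number, and replicate 2 with control replicate 1, at 0.141. With the replicate block the edgeR standard error was 0.17 in place of 0.43 for HDAC2 and 0.12 in place of 0.27 for SIRT1. In that fit 9.25% of all genes had an unadjusted p below 0.05, against 1.85% without the block, and 0 of the 7 deacetylases did. With the replicate block 3 of the 7 tested deacetylases were higher, as without it.

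Leaving out 1 library at a time gave 2 to 6 of the 7 higher, with 6 and a median log2 fold change of 0.19 without control replicate 1 (range of the median -0.073 to 0.19). The log2 fold change ranged over -0.64 to 0.23 for HDAC2, -0.39 to 0.24 for HDAC8, -0.27 to 0.19 for SIRT1 and -0.073 to 0.13 for HDAC6, and over -0.48 to 0.27 for HAT1, -0.49 to 0.37 for BRDT, -0.31 to 0.13 for PDHA1 and -0.32 to 0.12 for NAMPT. It ranged over -0.14 to 0.11 for CLOCK, -0.29 to 0.069 for TADA2A, -0.16 to 0.088 for YWHAB and -0.23 to 0.020 for HDAC9. Leaving out control replicate 1 turned the direction of HDAC2, HDAC8, SIRT1, HAT1, BRDT, PDHA1 and NAMPT, and high-temperature replicate 3 that of the last 5 of these. HDAC6 turned on high-temperature replicate 1 or control replicate 2, CLOCK and TADA2A on high-temperature replicate 1 or control replicate 3, YWHAB on control replicate 3 and HDAC9 on high-temperature replicate 1. The cause was not tested. HDAC1, HDAC3 and HDAC5 kept their sign in each of these. With library totals only, the log2 fold change was 0.031 for SIRT1, 0.058 for CLOCK, 0.021 for YWHAB, 0.036 for PRKD3 and 0.0087 for PDHA1. On the log2(FPKM + 1), log2(FPKM + 0.1) and log2(TPM + 1) scales it was 0.064, 0.066 and 0.062 for CLOCK, 0.041, 0.042 and 0.039 for YWHAB and 0.064, 0.066 and 0.062 for PRKD3. On these 3 scales 1 deacetylase was higher, where only 4 passed the minimum level. Depth limits HDAC4, HDAC7 and SIRT6, which had at most 13 reads in any library.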
